A study of Homo sapiens with 32 samples.

Results

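Guide abundance in RKO cells on day 6 after transduction was set against the day 0 library (T0) of the same pooled CRISPR-knockout screen, which asks which gene disruptions the cells lost or gained while they grew. RKO is an established colon carcinoma line that carries an activating BRAF mutation and is deficient in DNA mismatch repair. The cells of all sorted libraries expressed Cas9 and Kinprola_PKA, a recorder of protein kinase A (PKA) activity fused to EGFP, both from lentiviral insertions. They carried the genome-wide sublibrary A of the HD CRISPR guide library, had been selected with puromycin, and were sorted on day 6 by CPY-CA/EGFP, the labeling of the recorder relative to its own level. About 25% of cells went to the high gate, 50% to the medium gate (basal in the labels) and 25% to the low gate. The genotype is WT for all samples, and the T0 libraries are labeled as a day 0 control with no word on when they were taken relative to selection. The comparison used all 32 lane samples of 32 in the series, which make 8 libraries: high, medium, low and T0 of 2 screens, numbered replicates 2 and 3. It covered 18638 genes of 18638, each with 4 guides.

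A guide read count follows the number of cells that carry the guide. Cells without a gene that division or survival needs leave fewer descendants, so the guides against it drop out, and cells that lost a growth inhibitor can gain share. Because sorting split the day 6 cells by PKA labeling, none of the sorted libraries alone stands for the whole culture. The day 6 pool was therefore rebuilt for each guide as 0.25 × high + 0.5 × medium + 0.25 × low on the linear read scale, after every library was scaled to the same total. A linear sum counts cells, so that a guide that moved from 1 population to another keeps its level in the pool.

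The 8 libraries held 23369720 to 31777138 reads, with medians of 260 to 356 reads per guide and 82 to 166 of 74987 guides without a read. Lanes of a library agreed within sampling noise, with chi-square values of 1.02 to 1.03 for each degree of freedom, whereas the same measure was 5.76 to 7.34 between the 2 screens. Unless stated otherwise, reads below are scaled reads summed over the 4 guides of a gene, and a log2 change is log2 of pool over T0 within a screen, with a pseudocount of 1 read, averaged over guides and then over screens (± SE, n = 2 screens). A gene was called lower or higher at an adjusted p (limma, Benjamini-Hochberg) below 0.05, and lost where its log2 change was also -1 or lower. With 2 screens, both the p-values and the SE rest on variances that limma shared across genes (prior degrees of freedom 23.6). The ± of a gene is therefore not the spread of its own 2 screens. RRM1, for instance, was at -3.56 in replicate 2 and -4.36 in replicate 3 and has ± 0.12. An absolute log2 change under 0.288 was never called.

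More genes dropped out than gained, and the falls were deeper. Of 18638 genes, 1556 were lower in the day 6 pool (8.35%), 570 of them were lost (3.06%), and 473 were higher (2.54%). At an unadjusted p below 0.05 the count was 4275, split almost evenly into 2203 lower and 2072 higher. Of the lower genes, 38 had a log2 change of -3 or below, 150 lay between -3 and -2, 382 between -2 and -1, 469 between -1 and -0.5 and 517 above -0.5. All 570 lost genes fell in both screens, and 498 were at -1 or below in each, with medians of -1.56 in replicate 2 and -1.73 in replicate 3. Single guides gave a like picture: edgeR called 4622 of 74374 gene guides lower (6.21%) and 622 higher (0.836%). Of the lost genes, 412 had all 4 guides called lower, 137 had 3, 19 had 2 and 2 had 1. Without the replicate block, limma called 1256 genes lower, 106 higher and the same 570 lost. The number of higher genes fell to 182, 70, 217, 157, 192 and 257 without high replicate 2, high replicate 3, medium replicate 2, low replicate 2, low replicate 3 and T0 replicate 2, in that order.

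**Figure D1:**
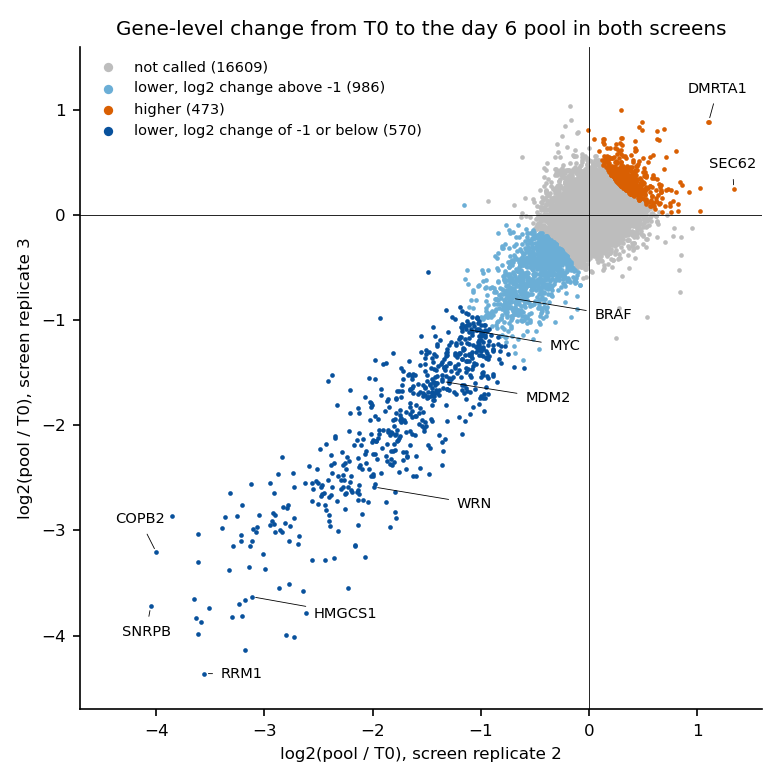
Log2 change from T0 to the day 6 pool for each of 18638 genes, with screen replicate 2 on the x axis and replicate 3 on the y axis; colors mark the calls, with the number of genes in brackets. The 570 lost genes form a tail below 0 in both screens that reaches RRM1 at -3.56 and -4.36, whereas the 473 higher genes stay at the edge of the cloud around 0.

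The 15 deepest falls are described here one by one. RRM1 (chr11:4094707-4138932, hg38), the large subunit of ribonucleotide reductase, went from 956 reads at T0 to 68 in the pool of replicate 2 and from 867 to 54 in replicate 3. Its log2 change was -3.96 ± 0.12 (adjusted p = 1.47e-18), a 15.6-fold fall, and each of its 4 guides fell. SNRPB (chr20:2461634-2470853), a core protein of the splicing snRNPs, went from 1543 to 126 reads and from 1404 to 124 (-3.89 ± 0.10). AURKB (chr17:8204733-8210600), the mitotic kinase of the chromosomal passenger complex, went from 1032 to 90 and from 1061 to 72 (-3.80 ± 0.10). Pool and T0 values did not overlap for any of these 3 genes, which follows from their choice as the largest falls. The same complex gave 2 more of the 15 largest falls, CDCA8 at -3.63 ± 0.10 and BIRC5 at -3.45 ± 0.10. PSMD14 at -3.74, PSMD7 at -3.73 and PSMB5 at -3.47 are proteasome subunits. RPA3 at -3.56 binds single-stranded DNA and CHEK1 at -3.66 is the checkpoint kinase that restrains firing of origins under replication stress. SRSF3 at -3.65, SF3B5 at -3.51 and SNRPG at -3.42 act in splicing, COPB2 at -3.60 is a coat protein of Golgi vesicles, and POLR2A at -3.40 is the catalytic subunit of RNA polymerase II. POLR2A went from 254 to 36 reads in replicate 2 and from 294 to 21 in replicate 3.

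Ribosomal protein genes fell without exception. All 46 genes of the large cytosolic subunit were lower (39 lost, median log2 change -2.10), as were all 33 of the small subunit (31 lost, median -1.83), beside 8.35% lower and a median of 0.04 over all genes. RPL15 dropped from 479 to 50 reads in replicate 2 and from 369 to 49 in replicate 3 (-3.35 ± 0.09), and RPSA from 518 to 33 and from 386 to 45 (-3.36 ± 0.14). The shallowest members, RPL28 at -0.38 and RPS10 at -0.70, were still called. T0 held fewer reads for these genes, with medians of 202 and 234 per guide for the large and small subunits against 353 over all genes. Many ribosomal protein genes have near-identical processed copies elsewhere in the genome, and how many sites each guide matches was not analyzed here.

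Factors that assemble or feed the ribosome fell less. Of 58 ribosome assembly genes, 52 were lower and 22 lost (median -0.83), led by WDR75 at -1.87, WDR74 at -1.83, DDX56 at -1.62 and DDX18 at -1.58. PES1, a factor of large-subunit assembly, went from 917 to 511 and from 708 to 493 reads (-0.92 ± 0.10), and NOP2, which methylates rRNA, had a change of -0.95 ± 0.09. Of 39 translation factors, 33 were lower and 20 lost (median of -1). EIF4A3, a helicase of the exon junction complex, changed by -2.79, EEF1A1, which delivers tRNA to the ribosome, by -2.31, and EIF2S1, a subunit of the initiator tRNA carrier eIF2, by -2.36. Of 23 cytosolic tRNA synthetase genes, 17 were lower and 5 lost (median -0.64), with SARS1 the lowest at -1.98. The polymerases that make rRNA and tRNA, I and III, had 18 of 33 genes lower and 7 lost (median -0.43), with RRN3, which recruits polymerase I, at -3.12 and POLR1A, its catalytic subunit, at -2.17.

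**Figure D2:**
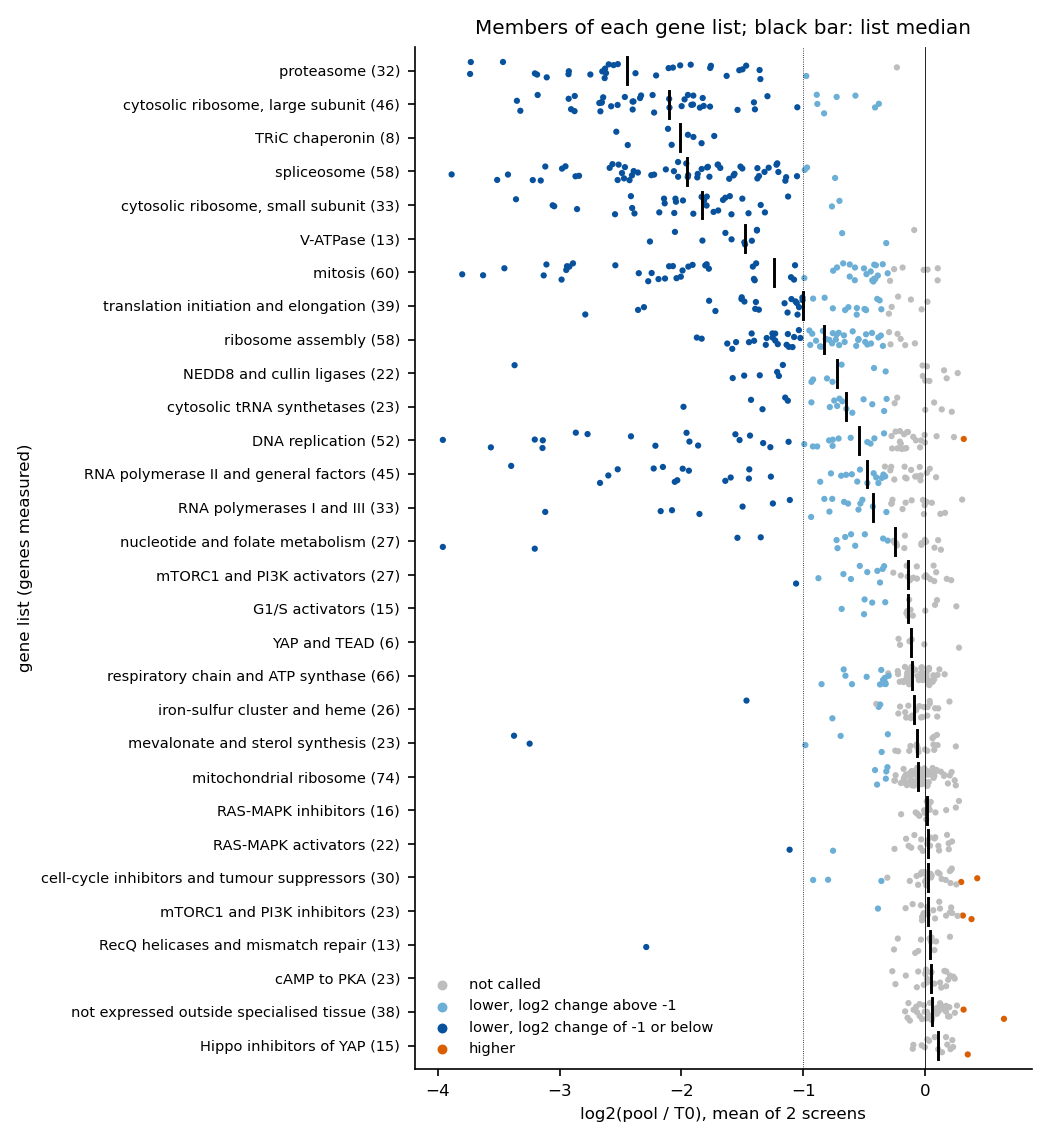
Log2 change from T0 to the day 6 pool (x axis, mean of 2 screens) of each member of 30 gene lists (y axis, number of genes measured in brackets), 1 point per gene colored by its call, with a black bar at the list median and a dotted line at -1. Lists run from the proteasome, with a median of -2.45, to the Hippo inhibitors of YAP, with a median of 0.11.

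The proteasome, TRiC and spliceosome lists fell nearly whole. Of 32 proteasome genes, 31 were lower and 30 lost (median -2.45), and the remaining ADRM1, a ubiquitin receptor, had a change of -0.23 that was not called. PSMD14, the deubiquitinase of the lid, went from 1214 to 174 reads in replicate 2 and from 1207 to 151 in replicate 3. All 8 genes of the TRiC chaperonin, which folds actin and tubulin, were lost (median -2.01), within the narrow range of -2.53 for TCP1 to -1.73 for CCT3. All 58 spliceosome genes were lower and 55 lost (median -1.95), from SNRPB to SART3 at -0.74. Of 13 genes of the V-ATPase, the proton pump of lysosomes, 12 were lower and 10 lost (median -1.48). ATP6V1A, its catalytic subunit, went from 1662 to 390 and from 1521 to 326 reads (-2.26 ± 0.10), and ATP6V1C1, another subunit, was at -0.09 and was not called. Among 22 genes of NEDD8 conjugation and cullin ligases, 14 were lower and 7 lost (median -0.72). RBX1, the RING subunit of most cullin ligases, led them at -3.37 ± 0.16, and DCAF1 (VPRBP), a substrate receptor, changed by -1.48 ± 0.10.

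Members of the transcription and replication lists ranged from deep to absent dropout. Of 45 genes of RNA polymerase II and its general factors, 29 were lower and 15 lost (median -0.47), from POLR2A to TAF11 at 0.09, which was not called. Of 52 DNA replication genes, 30 were lower and 18 lost (median -0.54). POLA1, the catalytic subunit of the priming polymerase, changed by -3.14 ± 0.09, whereas ORC4, a subunit of the origin recognition complex, was the only list member called higher, at 0.32 ± 0.09 (adjusted p = 0.0264). ORC4 lost that call when guides with fewer than 50 T0 reads were left out (0.22, adjusted p = 0.157), and without any 1 of 6 libraries, all but low replicate 3 and T0 replicate 3. Of 60 mitosis genes, 53 were lower and 33 lost (median -1.24), and CDC27, a core subunit of the anaphase-promoting complex, changed by -3.13 ± 0.10. Of 27 genes of nucleotide and folate metabolism, 12 were lower (median -0.25), among them RRM1, also a member of the replication list, its partner RRM2 at -3.20 and CAD, which starts pyrimidine synthesis, at -1.54.

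Few mitochondrial genes were lost by day 6, and the lists differed in the share that was lower. Of 74 genes of the mitochondrial ribosome, 5 were lower, 6.76% against the 8.35% of all genes, and none was lost (median -0.06), with MRPS21 the lowest at -0.41. Of 66 genes of the respiratory chain and ATP synthase, 13 were lower (19.7%, above the 8.35% of all genes) and none lost (median -0.11). All 4 subunits of succinate dehydrogenase, which links the citric acid cycle to the chain, were among those 13: SDHD at -0.85 ± 0.10, SDHC at -0.67 ± 0.09, SDHA at -0.65 ± 0.09 and SDHB at -0.37 (adjusted p = 0.00965). That these 4 belong together was noticed after their values were seen. Of 26 genes of iron-sulfur cluster and heme synthesis, 4 were lower (15.4%, also above 8.35%). ISCU, the scaffold on which clusters form, was the only gene lost (-1.46 ± 0.10).

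In the mevalonate pathway, which makes sterols and prenyl groups, HMGCS1 had one of the deep falls of the screen. HMGCS1 (chr5:43287470-43313512), which makes HMG-CoA, went from 2103 to 293 reads in replicate 2 and from 2036 to 227 in replicate 3 (-3.37 ± 0.11, adjusted p = 1.78e-18). Its pool and T0 values lay far apart in each screen, which follows from its choice by the size of its change. Of the 23 genes of the list 6 were lower (26.1%, beside 8.35% of all genes) and 2 lost (8.7%, beside 3.06%), with a median of -0.07. Among the lower genes were RABGGTA at -0.98, which attaches prenyl groups to Rab proteins, and SCAP at -0.69, the sterol sensor that controls SREBP. FDPS at -0.35 and MVD at -0.30 were lower as well. The RABGGTA guides had edgeR log2 changes of -2.66 and -0.73, and of -0.49 and -0.21 for the 2 that were not called.

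WRN was the only RecQ helicase gene that was lost. WRN, on chromosome 8, unwinds DNA structures that form at expanded repeats and is known to be needed by cells with microsatellite instability. It went from 558 to 175 reads in replicate 2 and from 642 to 148 in replicate 3, a log2 change of -2.29 ± 0.11 (adjusted p = 6.53e-15), and all 4 guides were called lower by edgeR. Of the 13 RecQ helicase and mismatch repair genes it was the only one that limma called in either direction (7.69% lower, near the 8.35% of all genes, median 0.04), while at an unadjusted p below 0.05 the list had 3 lower and 1 higher. By edgeR on gene sums RECQL4, at -0.24, was called as well. RECQL4 was at -0.22 ± 0.10, MSH3, a mismatch recognition protein, at -0.25 ± 0.09 and EXO1, the exonuclease of the pathway, at 0.21 ± 0.10.

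MDM2, a ubiquitin ligase, was lost, whereas CDKN1A, a cell-cycle inhibitor, was not called. MDM2 went from 1032 to 517 reads in replicate 2 and from 935 to 589 in replicate 3 (-1.47 ± 0.10, adjusted p = 3.1e-12). Its guides had edgeR log2 changes of -3.22, -1.43 and -0.83, and -0.40 for the one that was not called. Reads summed over the 4 guides gave a smaller edgeR log2 change of -0.86 for MDM2, which weights guides by their reads. MDM4, its relative, at -0.14, the deubiquitinase USP7 at -0.14 and the phosphatase PPM1D at -0.15 (each ± 0.10) were not called by limma, and MDM4 was called lower by edgeR on gene sums (-0.25). CDKN1A went from 2500 to 2561 and from 2418 to 2745 reads (0.13 ± 0.10, adjusted p = 0.453), a little higher in each screen. PMAIP1, which encodes the death protein NOXA, was called higher at 0.32 ± 0.09. The acetyltransferases CREBBP at -1.09 and KAT5 at -1.02 were lost. These 2 and PMAIP1 were the only called members of a list of 24 genes. Its share of lower genes was 8.33%, beside 8.35% of all genes, and its median was 0.09.

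Of 22 activators of RAS-MAPK signaling, limma called BRAF and MYC lower, 9.09% beside 8.35% of all genes (median 0.02). BRAF, the kinase that is mutated in RKO, went from 1469 to 885 reads in replicate 2 and from 1301 to 764 in replicate 3, a log2 change of -0.75 ± 0.09 (adjusted p = 7.74e-07). Its fall was seen with each guide, from an edgeR log2 change of -0.44, not called, to -1.03. MYC, the growth-promoting transcription factor, went from 783 to 342 and from 658 to 334 (-1.11 ± 0.09). None of 16 inhibitors of the pathway was called by limma or by edgeR on gene sums, and 2 were higher at an unadjusted p below 0.05.

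Of 27 activators of mTORC1 and PI3K signaling, 10 were lower (37%, beside 8.35% of all genes). SEC13, shared by nutrient sensing and the nuclear pore, was at -1.06, PIK3R4 and PIK3C3, subunits of the class III PI3-kinase, at -0.87 and -0.61, RHEB, the GTPase that switches mTORC1 on, at -0.67 ± 0.10, RPTOR at -0.53 and MTOR at -0.33. PIK3CA, the class I catalytic subunit, had -0.13 in replicate 2 and -0.65 in replicate 3 (-0.39 ± 0.11, adjusted p = 0.0161), and that call was lost with equal weights for the 3 populations (-0.28, adjusted p = 0.105), and without high replicate 2 (-0.31), high replicate 3 (-0.35), medium replicate 2 (-0.30), medium replicate 3 (-0.19) or T0 replicate 3 (-0.24). Of 23 inhibitors, 2 were higher and 1 was lower (4.35%), where 2.54% of all genes were higher and 8.35% lower. TSC2, the brake on RHEB, was higher at 0.38 ± 0.10 (adjusted p = 0.00653). ITFG2, a subunit of the KICSTOR complex, was higher at 0.31 (0.08 and not called when centered on guides without a target), and PPP2R2A was lower at -0.38. TSC2 went from 1312 to 1675 reads in replicate 2 and from 1466 to 2293 in replicate 3, and each of its 4 guides was above T0 in both screens. Its call was lost when changes were centered on guides without a target (0.15) or on olfactory receptor guides (0.31), and without high replicate 3 (0.43), low replicate 2 (0.28), T0 replicate 2 (0.31) or T0 replicate 3 (0.46). Its partner TSC1 was at 0.17 ± 0.10 and was not called.

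Of 15 activators of entry into S phase, 5 were lower (33.3%, beside 8.35% of all genes), while edgeR on gene sums called 7. The 5 were CKS1B at -0.68, CDK6 at -0.50, CDK4 at -0.49, CDK2 at -0.43 and CCNE2 at -0.33. Of 30 cell-cycle inhibitors and tumor suppressors, 3 were lower (10%, near the 8.35% of all genes), CUL3 at -0.92, BAP1 at -0.79 and MED12 at -0.36. MED12 had -0.12 in replicate 2 and -0.59 in replicate 3. Of its 4 guides, 2 were below T0 in both screens and edgeR called 1 lower. Another 2 genes of the list were higher, CDKN1B at 0.43 and AMBRA1 at 0.30, where 2.54% of all genes were higher. The list median was 0.03, beside 0.04 over all genes. The call of CDKN1B was lost with the median over guides (0.02), without guides of fewer than 50 T0 reads (-0.02), and without T0 replicate 3 (0.19), high replicate 2 (0.44), high replicate 3 (0.36), low replicate 2 (0.40) or low replicate 3 (0.40), and its value was 0.68 without T0 replicate 2. RB1, the brake on entry into S phase, was at 0.22 ± 0.10 (adjusted p = 0.159). Of 15 Hippo pathway inhibitors of YAP, PTPN14 was higher at 0.35 ± 0.09, a call lost with centering on guides without a target (0.12) or on olfactory receptor guides (0.28) and without any 1 of 4 libraries. NF2 at 0.18 and LATS2 at 0.23 were not called, nor were any of the 6 YAP and TEAD genes, of which 1 was lower and 1 higher at an unadjusted p below 0.05 and 1 lower by edgeR on gene sums. None of the 23 genes that run from cAMP to PKA was called by limma in either direction (median 0.05), with PRKACA, the main catalytic subunit, at -0.01 ± 0.10, PRKAR1A, a regulatory subunit, at 0.16 ± 0.09, GNAS, the stimulatory G protein, at 0.14 ± 0.09 and ADCY7, an adenylyl cyclase, at 0.18 ± 0.09. At an unadjusted p below 0.05, 2 of the 23 were lower and 3 higher, and edgeR on gene sums called 2 lower. CTNNB1, the WNT effector, was at -0.02 ± 0.10, and APC, which destroys it, at 0.11 ± 0.10.

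Fitness gains were small, and the largest of them rested on sparsely read guides. Only 31 of the 473 higher genes reached a log2 change of 0.5, and the largest was 0.998, while dropout reached -3.96. The top gene, DMRTA1, had 533 and 530 T0 reads against 639 and 645 in the pool, although its log2 change was 0.998 ± 0.10 (adjusted p = 7.12e-09). Its guide 1 had 0 reads at T0 in both screens and log2 values of 3.88 and 2.69, which the pseudocount sets, and its other 3 guides lay between -0.17 and 0.70. MAP1B likewise had a guide with 0 and 1 T0 reads at 4.03 and 3.30, whereas its other 3 guides lay between -0.12 and 0.36. SEC62 moved by 1.34 in replicate 2 and 0.25 in replicate 3, with a guide of 0 and 14 T0 reads. Of the 15 largest rises, 13 had a guide with fewer than 10 T0 reads in a screen. Among all 473 higher genes, 232 (49%) had a guide with fewer than 50 T0 reads in a screen, compared with 11.7% of all genes.

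**Figure D3:**
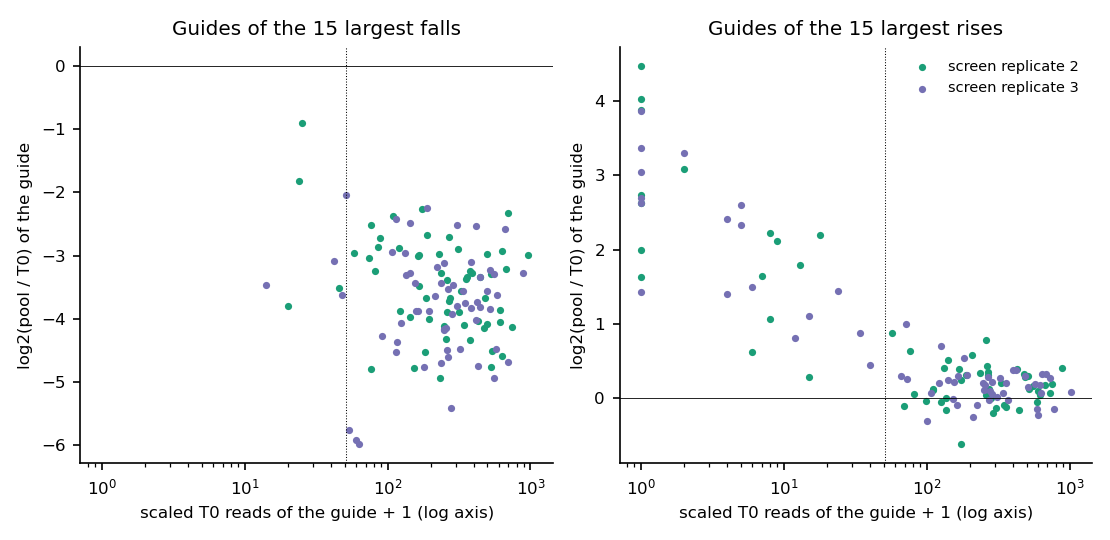
Log2 change of each guide (y axis) against its scaled T0 reads plus 1 (x axis, log scale) for the 15 genes with the largest falls (left) and the 15 with the largest rises (right), 1 point per guide and screen, with a dotted line at 50 T0 reads. Guides of the falls lie below 0 at all depths, whereas nearly all high values of the rises lie left of the line.

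When guides with fewer than 50 T0 reads were left out, 498 genes were higher, of which 299 were among the 473. Of the 15 largest rises 3 kept the call: AMELX at 0.42, PTPRH at 0.42 and PHACTR4 at 0.30. DMRTA1 came to 0.24 (adjusted p = 0.11), MAP1B to 0.10 (adjusted p = 0.589) and ASPHD2 to -0.12 (adjusted p = 0.489). CDKN1B, which encodes the cell-cycle inhibitor p27, came to -0.02, since its rise lay in a guide with 9 and 0 T0 reads. Among genes that kept at least 3 guides, the largest rise was then 0.64 for COL25A1, a membrane collagen, on 3 guides. SLC14A2, a urea transporter, was the only gene called higher in each of 15 fits with all libraries and no trend in the prior variance. Its change was 0.53 ± 0.10, with 4 of 4 guides above T0 in both screens. Fits with a library left out were not part of that count. COL25A1 and SLC14A2 were picked after their values were seen. By single guides, 328 of the 473 genes had no guide that edgeR called higher, 135 had 1 and 10 had at least 2.

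The number of gains depended on where 0 was set. The 278 guides without a genomic target had medians of 0.23 in replicate 2 and 0.25 in replicate 3, the 1356 guides against olfactory receptor genes, which are mostly silent outside the olfactory epithelium, 0.08 and 0.07, and all gene guides 0.02 and 0.02. With each screen centered on the guides without a target, 6072 genes were lower and 22 higher, so falls made up 99.6% of calls in place of 76.7%. With olfactory receptor guides as 0, 1865 were lower and 108 higher (94.5%). The lost genes numbered 713 and 603 then and included all 570. Of all genes, 6.57% were at or above 0.236, the median of the guides without a target. Of 339 olfactory receptor genes, 11 were lower (3.24%), 19 higher and none lost, where 8.35% of all genes were lower and 2.54% higher. By single guides, edgeR called 2.44% of olfactory receptor guides lower and 2.51% higher, against 6.21% and 0.836% of all gene guides. Of 38 genes that are not expressed outside specialized tissue, 2 were higher, AMELX and the hair keratin-associated KRTAP1-1 at 0.32.

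**Figure D4:**
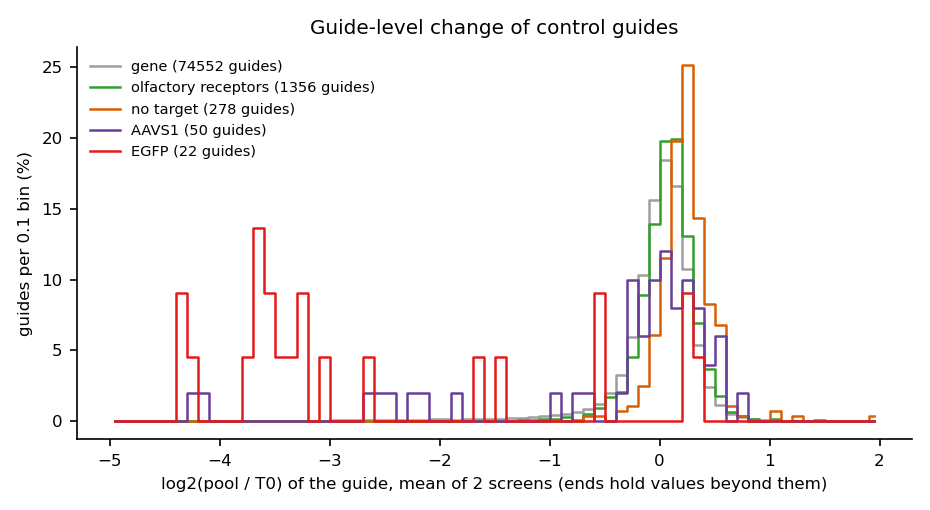
Share of guides (y axis, percent per bin of 0.1) by log2 change from T0 to the day 6 pool (x axis, mean of 2 screens; the end bins hold values beyond them) for gene guides and 4 kinds of control guides. Guides without a target lie to the right of the gene guides, and guides against EGFP lie mostly below -1.

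Other control guides did not all stay at their T0 level. Of 22 guides against EGFP, which is part of the recorder and of the sorting ratio, 17 had a mean log2 change of -1 or below, and the entry was at -2.60 ± 0.10 (adjusted p = 2.31e-17). Because the gates were set on EGFP, absence from them and loss of cells cannot be told apart for these guides. Of 50 guides against the AAVS1 safe harbor site, 8 were at -1 or below and the entry was at -0.40 ± 0.10 (adjusted p = 0.00417), although the guide medians were -0.06 and 0.08. Entries that carry gene symbols but no Ensembl identifier stayed near 0, for instance the PSMA3 control entry at -0.10 ± 0.10, compared with -3.20 ± 0.12 for the gene PSMA3. The target of those entries was not analyzed here.

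Of the 570 lost genes, 311 were in the lists and 259 were not. Leading the latter after CHEK1, SRSF3 and COPB2 were CHMP2A at -3.05, an ESCRT protein that cuts membranes, DONSON at -3.02, a replication fork protein, PRC1 at -2.96, which bundles the central spindle, UBL5 at -2.92, SRP9 at -2.86 of the signal recognition particle, and CKAP5 at -2.81, a microtubule polymerase. These genes were chosen by rank after their values were seen.

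Segmental duplication families also appeared among the lost genes, and the symbols below were likewise grouped after their values were seen. For comparison, 8.35% of all genes were lower and 3.06% lost. Of 11 NBPF genes, whose near-identical copies lie mainly on chromosome 1, 9 were lower and 5 lost (median -0.68). NBPF11 went from 583 to 135 reads in replicate 2 and from 635 to 78 in replicate 3 (-2.65 ± 0.14). NBPF15 was at -2.15 and NBPF14 at -2.08, whereas NBPF19 at -0.06 and NBPF3 at -0.20 were not called. Of 4 NPIP genes of chromosome 16, 4 were lower and 3 lost, with NPIPB9 at -2.01 and NPIPB5 at -1.99. All 4 genes from AGAP4 to AGAP9 on chromosome 10 were lost, from -1.54 for AGAP6 to -1.17 for AGAP5. Of 16 GOLGA6 and GOLGA8 genes on chromosome 15, 12 were lower and 7 lost (median -0.61), and of 4 SPDYE genes 4 were lower and 2 lost. In these 5 families edgeR called 25 of 44, 12 of 16, 14 of 16, 32 of 64 and 11 of 16 guides lower. Among all gene guides, 6.21% were called lower. The number of sites that each of these guides cuts was not analyzed here.

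Finally, the pool was set beside the single sorted populations. Over the lost genes the median log2 change against T0 was -1.43 in the high, -1.98 in the medium and -2.03 in the low population, and 568 of the 570 were below T0 in all 3. The lowest of the 3 values was that of the low population for 310 genes, of medium for 164 and of high for 96. Lists differed in this respect. Large ribosomal subunit genes had medians of -2.75 in high, -2.59 in medium and -1.43 in low, whereas spliceosome genes had -1.24, -2.32 and -2.89. RNA polymerase II genes had -0.07, -0.64 and -1.06. Proteasome genes were down in all 3, at -1.99, -2.78 and -2.54. All these values share the T0 libraries, and differences between populations were not tested here.

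A different average changed such genes most. A mean of log2 values with the same weights called 615 genes lost, the 570 and 45 more, and lowered the lost genes by a median of 0.117 relative to the linear pool. The 10 genes with the widest gap had from 0.57 to 0.78 between the 2 measures. CPSF3, the endonuclease that cuts mRNA before polyadenylation, had 1105 T0 reads in replicate 2 against 1152 in high, 343 in medium and 108 in low, and in replicate 3 it had 1167 against 875, 266 and 79. Its pool change was -1.49 ± 0.10, and the mean of logs gave -2.21. FZR1, an activator of the anaphase-promoting complex, had 1397 T0 reads in replicate 2 against 2426 in high, 760 in medium and 117 in low, and 1199 against 2164, 833 and 116 in replicate 3. The high population was above T0 and the low population far below it in both screens, with -0.41 ± 0.10 in the pool (adjusted p = 0.0038) and -1.03 by the mean of logs. That call was lost without medium replicate 2 (-0.26), low replicate 2 (-0.22), low replicate 3 (-0.23) or T0 replicate 2 (-0.28), and the value came to -0.85 and -0.75 without high replicate 2 and high replicate 3. SMG6, the endonuclease of nonsense-mediated decay, had the same order: 0.87 in high, -0.49 in medium and -2.56 in low, and -0.10 ± 0.09 in the pool (adjusted p = 0.588) against -0.66 by the mean of logs. HSPA8, the constitutive HSP70 chaperone, was at -0.67 ± 0.09 and -1.25 by these measures. RPL10A was the only gene of the 10 with the opposite order, at -4.30 in high, -4.30 in medium and -1.55 in low, and -2.88 ± 0.09 in the pool. The others were RUVBL1, LSM6, LSM7, TXNL4A and POLR2F, from -2.66 to -1.87 in the pool. TRIM33, a transcriptional cofactor of TGF-beta signaling, was at -0.31 ± 0.10 in the pool (adjusted p = 0.0542) and -0.59 by the mean of logs, at which it was called (adjusted p = 0.00533). Without high replicate 2 it was -0.55 and called (adjusted p = 0.00264), without high replicate 3 it was -0.61, and without any 1 medium or low library it was -0.17 to -0.21, none of the latter called.

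**Figure D5:**
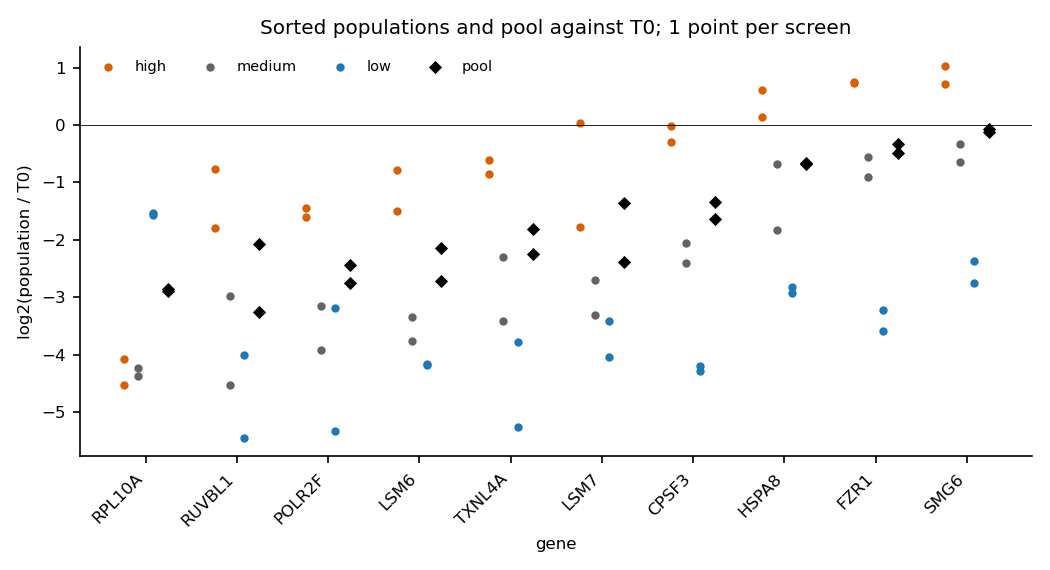
Log2 change against T0 (y axis) of the high, medium and low populations and of the reconstructed pool for the 10 genes (x axis) whose linear pool and mean of logs differed most, 1 point per screen. In 9 of the 10 genes the high population lies above the low, and in RPL10A the order is turned.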

How the data were processed

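The series holds a CRISPR-knockout screen in RKO cells. The authors counted guide sequences with MAGeCK, as the processing notes of the submitters name it, and deposited raw read counts per guide and lane. An aligner and a genome build are not given in the sources used here, guide sequences were not used, and 4 columns that match no sample were not used. Lanes were summed into 8 libraries of 23369720 to 31777138 reads, scaled to their mean total. The members and gene lists were chosen with earlier results of these data known.

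Per guide and screen, the pool was 0.25 × high + 0.5 × medium + 0.25 × low, and log2((pool + 1)/(T0 + 1)) was averaged over the 4 guides of a gene. limma 3.58.1 (lmFit, eBayes, R 4.3.3) tested the mean of 2 screens against 0, and p-values were adjusted by Benjamini and Hochberg's method over 18638 genes and 21 control entries, 18659 in all. Taking the change within a screen makes the replicate number a block, since the study describes independent screens. Across genes, the deviations of same-numbered pool and T0 values correlated at 0.12. Single guides were tested with edgeR 4.0.16 (quasi-likelihood, TMM, filterByExpr, replicate block) on the rounded pool and T0. This pool is a weighted sum of 3 libraries, so its counting error is smaller than that of 1 library and edgeR's model holds only approximately. DESeq2 1.42.0 was an alternative. Both fits were tested on simulated data.

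Genes named include the 15 largest falls and the 15 largest rises. They were taken among called genes of the same sign in both screens with a mean of at least 50 T0 reads per guide. That limit holds for the mean over the 4 guides of a gene, and a single guide could have fewer reads. Also named are the 4 members of each list with the largest absolute change and called members that oppose the list median. Further genes are 29 chosen for RKO biology and the study, and the 10 with the widest gap between pool and mean of logs. Some of these genes are not reported here. Other genes complete a small count or give the end of a list's range, or were chosen after their values were seen, as is stated there. Gene coordinates are of GENCODE 44 on hg38. No molecular identifiers were used here, so reads can be PCR copies and error estimates from reads cover counting error only. The T0 libraries are not described further in the sources used here.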

Additional observations from a re-analysis of the deposited data

Results flagged for a closer look

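In 11 of the genes described above, the high and low populations lay on opposite sides of T0 in both screens. Only the 29 genes chosen for RKO biology and the study and the 10 with the widest gap were looked at. The 10 were picked for uneven spread over these gates, and FZR1, TRIM33, PRKACA, GNAS and ADCY7 are hits of the study from these same screens. The count thus follows in part from the choice, and the share over all genes was not computed. With 2 libraries per population and a shared T0, the difference was not tested here. The high population was above T0 and the low below it, by a difference (high minus low, log2) of 4.15 for FZR1, 3.43 for SMG6, 3.25 for HSPA8, 2.2 for TRIM33, 1.16 for PRKAR1A and 0.36 for CDKN1A. The order was the opposite for PRKACA (-1.6), GNAS (-1.31), PIK3CA (-1.27), ADCY7 (-1.06) and TSC1 (-0.64). For PRKACA, which encodes the main PKA catalytic subunit, the pool hid a log2 change of -0.65 in high and 0.95 in low behind a change of -0.01. No group held enough libraries to look for a single outlying sample.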

How the results depend on the processing

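Lost genes kept within 1.5 times of 570 under all alternatives (523 to 713), 535 to 601 when a library was left out, and 470 genes were lost in each of 24 fits. Genes lower stayed between 1206 and 2032 (1206 to 1482 with a library left out), except 6072 when centered on guides without a target. Genes higher ranged from 70 to 499 with a library left out (70 without high replicate 3), and otherwise numbered 291 with DESeq2 size factors, 22 centered on guides without a target, 108 centered on olfactory receptor guides, 174 by the mean of log2 values, 94 from the medium population alone, 106 with no replicate block in limma and 51 by DESeq2 on gene sums with the replicate block. Pseudocounts of 5 and 10 reads gave 489 and 683, TMM 346, and a trend in the prior variance, chosen after seeing the data, 633. Genes at a log2 change of -1 or lower in 1 screen alone numbered 523 to 593, and genes at 0.5 or higher 104 to 145. Guides lower fell from 4622 to 2544 by DESeq2, and guides higher from 622 to 4 by DESeq2 with the replicate block and 254 by edgeR with no replicate block. Among 170 genes under 25 alternatives each, called changes turned in sign 6 times: CDKN1B to -0.0224 and ASPHD2 to -0.12 without guides of few T0 reads, BTK to -0.0732 by edgeR and -0.0745 by DESeq2 on gene sums, and ASPHD2 to -0.10 and -0.11 by the same tests. Another 54 changes of sign concerned values not called in either fit. Of the 4250 values, 228 lost and 60 gained a call. PTPN14 and PMAIP1 lost theirs when centered on guides without a target (0.12 and 0.08) or on olfactory receptor guides (0.28 and 0.25). PTPN14 also lost its call without high replicate 3 (0.39), medium replicate 3 (0.29), low replicate 2 (0.33) or T0 replicate 2 (0.32), and PMAIP1 without any 1 library but medium replicate 3, at 0.26 to 0.38. With no replicate block, the calls of TSC2, FZR1, PIK3CA, PMAIP1 and ORC4 were lost. BRAF, WRN and MDM2 were called lower in all 24 fits. Guides with few T0 reads and the number of screens limit the precision of small changes.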
